A study of Mus musculus with 6 samples.

Results

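The genes described here are 9 cholinergic genes of mouse hippocampus, read from a deposited table of 32066 named features by their symbols. They are 4 muscarinic acetylcholine receptors (Chrm1, Chrm2, Chrm3 and Chrm4), 3 nicotinic receptor subunits (Chrna4, Chrna7 and Chrnb2), acetylcholinesterase (Ache) and choline acetyltransferase (Chat). All 9 symbols had a row in the table, and 8 of them were counted in all 6 libraries. Chat was the exception.

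Hippocampal poly(A) RNA came from wild type female C57BL/6J mice that had both ovaries removed at 8 weeks of age, and the tissue was collected at 17 weeks. Between those ages the OVX+RJ group (n = 3) was fed 1% royal jelly, which worker honeybees secrete, and the OVX group (n = 3) received the control diet. Libraries are labelled as biological replicates. Sham-operated mice, which the protocol mentions, are not analysed here, so no value below bears on ovariectomy itself. Library totals ran from 36084596 to 39368214 counts in OVX+RJ and from 34718607 to 58163790 counts in OVX. OVX+RJ 1 stood apart from the other libraries on the first principal component, which held 28.72% of the variance, and the log2 fold changes of Chrm2, Chrm3, Chrm4 and Ache are also given without it.

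Acetylcholine reaches the hippocampus mainly along axons of the medial septum and the diagonal band, whose cell bodies lie outside it. Muscarinic receptors are coupled to G proteins: M1 and M3 signal through Gq, which activates phospholipase C and closes the potassium channels of the M current, and M2 and M4 signal through Gi/o, which lowers cyclic AMP and opens inwardly rectifying potassium channels. Nicotinic receptors are pentameric cation channels, in brain mostly assemblies of α4 with β2 subunits and homomers of α7. Choline acetyltransferase makes the transmitter in cholinergic neurons, and acetylcholinesterase splits it in the synaptic cleft.

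The sequences printed here are the 250 bases upstream of the RefSeq start of Chrm4 and Chrnb2, the members with the largest positive and the largest negative difference between the diets over all 6 libraries. Both windows are from GRCm38.p6, read 5′ to 3′ on the strand of the gene, and neither overlaps an exon of the GENCODE M21 annotation. Capitals mark GC boxes, the letters GGGCGG on either strand. Chrm4 lies at chr2:91921939-91922188 on the plus strand, and Chrnb2 at chr3:89764633-89764882 on the minus strand.
Chrm4: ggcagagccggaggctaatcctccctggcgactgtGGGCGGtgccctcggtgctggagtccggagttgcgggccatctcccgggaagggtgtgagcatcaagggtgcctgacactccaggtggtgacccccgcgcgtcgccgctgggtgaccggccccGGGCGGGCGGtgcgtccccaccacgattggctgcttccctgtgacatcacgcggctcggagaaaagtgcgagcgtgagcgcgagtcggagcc
Chrnb2: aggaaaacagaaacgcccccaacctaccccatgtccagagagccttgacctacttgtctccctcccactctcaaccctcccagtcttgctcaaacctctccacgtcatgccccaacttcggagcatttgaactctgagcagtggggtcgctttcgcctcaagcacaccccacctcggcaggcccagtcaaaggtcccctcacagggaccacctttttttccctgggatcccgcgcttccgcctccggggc
The Chrm4 window was 70% G and C with 26 CpG dinucleotides and held 3 GC boxes, 2 of them overlapping. The Chrnb2 window was 59.6% G and C with 10 CpG and held none. Across 8 members matched in the RefSeq table, G and C content ran from 50% in Chrm2 to 74.4% in Chrna4, against a median of 52.4% over 32851 promoters. The Chrm2 window lies wholly within annotated exons of M21. Those of Chrna4 (128 bases), Chat (80), Ache (54), Chrm3 (44) and Chrna7 (43) lie partly within such exons. Chrm1 had no window. All 8 exceeded the median of 6 CpG of all promoters, and 4 of them (Ache, Chrm4, Chrna4 and Chrna7) exceeded the upper quartile of 16. A GC box was present in 5 of 8 members, against 32.74% of all promoters. The letters GCGGGGGCG, which the early growth response (EGR) factors are known to bind, were found on either strand in Ache, with 2 matches, and in Chrna7, with 1, against 2.572% of all promoters with a match. They can overlap a GC box. TATAAA and TGACGTCA, the TATA box and cyclic AMP response element, were found on neither strand in any of the 8 windows, against 12.37% and 1.546% of all promoters. These matches describe letters and are not evidence of binding.

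Per unit of length, Chrm1 was the most abundant of the 9 messages by a wide margin. Levels of different genes were compared as CPM, a gene's counts per 1000000 counts of its library, divided by the length of the gene's exons in kilobases. Chrm1, the main Gq-coupled muscarinic receptor of forebrain pyramidal neurons, averaged 31.8 ± 0.446 CPM per kb in OVX+RJ and 32.1 ± 1.84 CPM per kb in OVX (SD, n = 3 each). Chrm3, the other Gq-coupled member, came next at 10.1 ± 0.608 CPM per kb in OVX+RJ and 9.61 ± 0.930 CPM per kb in OVX. Chrm1 exceeded Chrm3 by 2.99-fold to 3.61-fold within each of the 6 libraries.

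Per length of exon, Ache and Chrnb2 followed Chrm3 and could not be ordered. Over all 6 libraries Ache averaged 8.81 ± 1.01 CPM per kb and Chrnb2 averaged 8.65 ± 0.510 CPM per kb (SD, n = 6), with Ache higher in 2 libraries and Chrnb2 in 4. Divided by coding length instead, Chrnb2 averaged 33.2 CPM per kb and Ache 22.1 CPM per kb, so their order depends on the length used. Chrm3 exceeded Ache in 5 of 6 libraries, and their ranges overlapped. Chrm4, the Gi/o-coupled receptor best known from striatum, and Chrna7, which forms the α7 channel, were also alike, at 5.54 ± 0.909 and 5.36 ± 0.287 CPM per kb, each higher in 3 libraries. Chrna4 averaged 2.64 ± 0.379 CPM per kb and Chrm2, the receptor typical of cholinergic and GABAergic terminals, averaged 1.43 ± 0.276 CPM per kb.

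The neighbours in this order fell into 2 kinds. Chrm1 over Chrm3, Chrnb2 over Chrm4, Chrna7 over Chrna4 and Chrna4 over Chrm2 held in 6 of 6 libraries with ranges that did not overlap. Each had p = 0.03125 in an exact two-sided paired permutation test, the smallest that 6 libraries allow, and an adjusted p of 0.0547 over 7 neighbouring pairs, which does not pass 0.05. The pairs were chosen from the order of means in the same 6 libraries, so the test gives no independent support for that order. The other 3 pairs, Chrm3 with Ache, Ache with Chrnb2 and Chrm4 with Chrna7, had exact p values of 0.0625, 0.8125 and 0.75 and overlapping ranges. Chat was left out of these tests because it was at 0 in 4 libraries. The place of Chrm4 depends on its gene model: the M21 model is 1440 bases long, of which 1437 are coding, so its level is per coding length while the other members are also divided by their untranslated exons. Per coding length for every gene, Chrm4 was the lowest of the 8 counted members, at 5.56 CPM per kb against 6.18 CPM per kb for Chrm2 and 150 CPM per kb for Chrm1. The counts stayed those of whole genes, so this raises members with long untranslated exons most. Chrm1 has 1380 coding bases of 6487 exon bases, and Chrm2 has 1398 of 6053. Neither length settles the place of Chrm4.

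**Figure D1:**
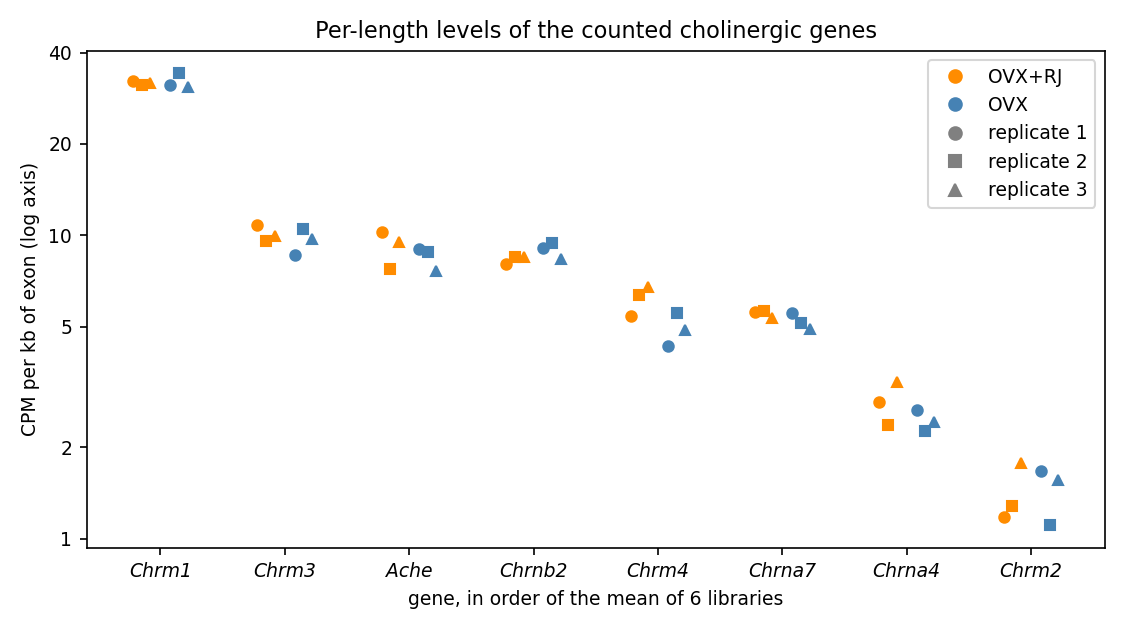
Level of the 8 counted members in CPM per kb of exon (log axis), with genes in the order of the mean of 6 libraries; each point is a library, with OVX+RJ left of OVX within a gene. Chrm1 stands alone near 32 CPM per kb, Chrm3, Ache and Chrnb2 lie together between 7.64 and 10.8 CPM per kb, and Chrm2 is lowest at 1.11 to 1.78 CPM per kb.

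None of the 8 members tested passed an adjusted p of 0.05 between the diets. The test was edgeR's quasi-likelihood fit, with p values adjusted by Benjamini-Hochberg over 18629 features, and adjusted p values of the members ran from 0.986 to 0.997. Among all features 0 were called higher in OVX+RJ and 0 lower, a share of 0% in each direction, while DESeq2 on the same counts called 12 features and none of the members. At an unadjusted p under 0.05, 1 of 8 members stood out, Chrm4, against 4.05% of all features (754 of 18629), 2.14% higher in OVX+RJ and 1.91% lower. Without OVX+RJ 2, Chrna4 and Ache passed that level, with unadjusted edgeR p values of 0.0276 and 0.0317, and Chrm4 did not. No member passed it without OVX+RJ 3, OVX 1 or OVX 3. The values of the groups overlapped for each of the 8, against 10.5% of all features without overlap, 4.53% higher in OVX+RJ and 5.95% lower. Log2 fold changes of OVX+RJ over OVX were positive for 5 members and negative for 3. Those of Chrm1 and Chrm2 were near 0 and changed sign in some alternative fits. The values ran from -0.092 for Chrnb2 to 0.34 for Chrm4, with a median of 0.090 beside -0.0015 over all features.

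**Figure D2:**
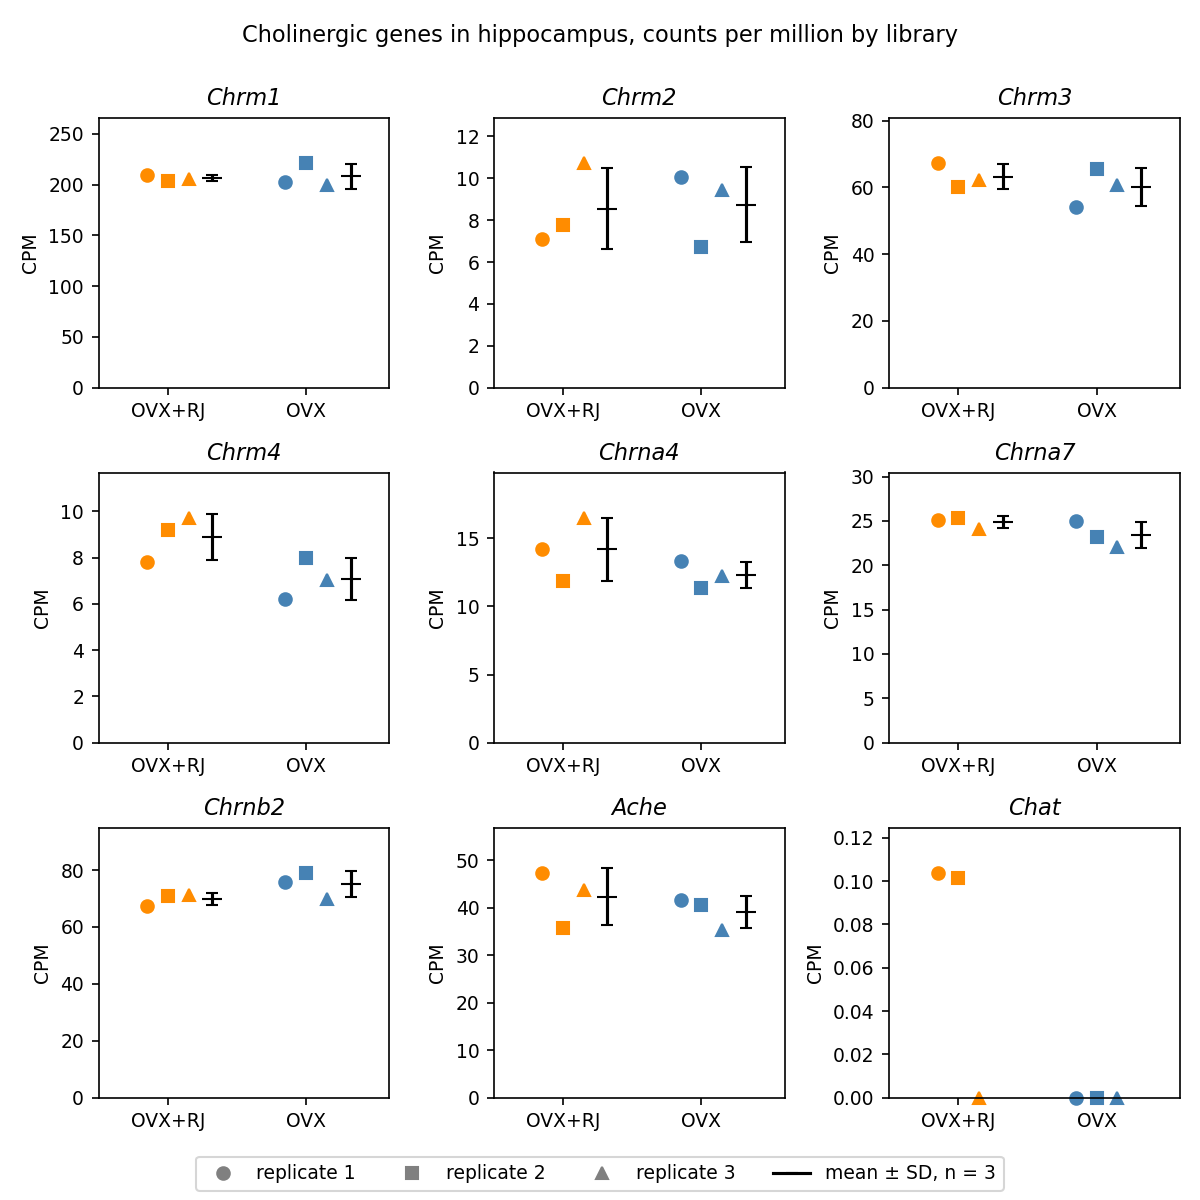
CPM of each of the 9 members by library, with OVX+RJ left and OVX right; bars give the mean and SD of 3 libraries, and are left out for Chat. The groups overlap in every panel of a counted gene; for Chrm4 the lowest OVX+RJ library (7.79 CPM) lies just under the highest OVX library (7.98 CPM).

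Among the Gq-coupled receptors, Chrm1 was the steadiest message of the 9. It measured 209, 203 and 205 CPM in OVX+RJ 1, 2 and 3 and 202, 222 and 199.8 CPM in OVX 1, 2 and 3. The OVX+RJ values lay inside the range of the OVX values, and the coefficient of variation over 6 libraries was 3.79%. OVX+RJ over OVX gave a log2 fold change of -0.0021 (SE 0.061). The limma 95% interval ran from -0.13 to 0.13 on the log2 scale, or 0.911-fold to 1.10-fold. Chrm3 measured 67.4, 60.0 and 62.2 CPM in OVX+RJ mice and 54.0, 65.6 and 60.7 CPM in OVX mice. The highest value was OVX+RJ 1 and the lowest OVX 1, and the other libraries of both groups lay between 60.0 and 65.6 CPM. Its log2 fold change was 0.083 (SE 0.089), with an interval from -0.11 to 0.28. Single libraries moved the value of Chrm3 by more than 1.5 times: it was 0.022 without OVX+RJ 1, 0.13 without OVX+RJ 2, 0.0078 without OVX 1 and 0.15 without OVX 2.

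The Gi/o-coupled receptors differed from each other. Chrm4 measured 7.79, 9.17 and 9.73 CPM in OVX+RJ 1, 2 and 3, from 300 to 361 counts, and 6.19, 7.98 and 7.04 CPM in OVX 1, 2 and 3, from 215 to 464 counts. OVX+RJ 2 and 3 were above every OVX library, and OVX+RJ 1 lay between OVX 2 and the other OVX libraries. The means were 8.90 ± 0.995 CPM for OVX+RJ and 7.07 ± 0.893 CPM for OVX (SD, n = 3 each). This is a log2 fold change of 0.34 (SE 0.15), or 1.26-fold. The edgeR p was 0.0461 and the adjusted p was 0.986, so Chrm4 was not called. The limma interval ran from 0.019 to 0.67 on the log2 scale. Leaving out any library kept the value positive, between 0.25 without OVX 1 and 0.44 without OVX 2, with 0.41 without OVX+RJ 1, and the unadjusted edgeR p lay between 0.0186 without OVX+RJ 1 and 0.152 without OVX 1.

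Chrm2 showed no direction. It measured 7.12, 7.77 and 10.8 CPM in OVX+RJ mice and 10.1, 6.71 and 9.42 CPM in OVX mice. Each group held both high and low libraries, and the coefficient of variation of 19.3% was the largest of the 8. A log2 fold change of -0.018 (SE 0.19) separated the groups, and the limma interval, from -0.44 to 0.40, was also the widest. Its sign depended on the library left out, with 0.091 without OVX+RJ 1 and -0.21 without OVX+RJ 3. Chrm2 measured between 274 and 390 counts in each library. Changes anywhere within the limma interval remain compatible with these libraries.

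Among the nicotinic subunits, Chrnb2 had the lowest log2 fold change and, over all 6 libraries, Chrna4 the highest. Chrnb2, the β2 subunit that pairs with α4, measured 67.5, 70.9 and 71.2 CPM in OVX+RJ mice and 76.0, 79.1 and 69.97 CPM in OVX mice. OVX 3 lay within the OVX+RJ values, and the other OVX libraries were above them. For Chrnb2 the log2 fold change was -0.092 (SE 0.068), with an interval from -0.24 to 0.060. It was -0.048 without OVX 2. In M21, exons of Chrnb2 overlap those of Adar, a gene on the opposite strand, and the sources used here give no strand setting for the counting, so the 2 genes may share counts. Chrm1, Chrm2 and Ache each overlap 1 predicted or uncharacterised gene on the opposite strand, with the same limit. Chrna4 measured 14.2, 11.9 and 16.5 CPM in OVX+RJ mice and 13.3, 11.4 and 12.2 CPM in OVX mice. The highest and the next highest values were OVX+RJ libraries, while OVX+RJ 2 lay below all but OVX 2. For Chrna4 it was 0.22 (SE 0.14), with an interval from -0.089 to 0.51. The value of Chrna4 was 0.34 without OVX+RJ 2 and 0.11 without OVX+RJ 3, where Chrna7 was at 0.13.

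Chrna7, the subunit of the fast calcium-permeable α7 channel, measured 25.1, 25.4 and 24.1 CPM in OVX+RJ mice and 25.0, 23.2 and 22.1 CPM in OVX mice. The groups overlapped through OVX 1. Its log2 fold change was 0.097 (SE 0.088), with an interval from -0.096 to 0.29. It was 0.062 without OVX 3. Per length, Chrna4 stood at 0.280 to 0.387 of Chrnb2 in OVX+RJ and at 0.240 to 0.292 of Chrnb2 in OVX. The lowest OVX+RJ value, in OVX+RJ 2, lay inside the OVX range.

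Ache, the enzyme that ends cholinergic transmission, measured 47.4, 35.8 and 43.8 CPM in OVX+RJ mice and 41.6, 40.6 and 35.3 CPM in OVX mice. OVX+RJ 1 and 3 were above every OVX library and OVX+RJ 2 was below all but OVX 3. The log2 fold change of Ache was 0.13 (SE 0.11), with an interval from -0.13 to 0.37. Without OVX+RJ 1 it was 0.024, without OVX+RJ 2 it was 0.24 and without OVX 3 it was 0.062.

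**Figure D3:**
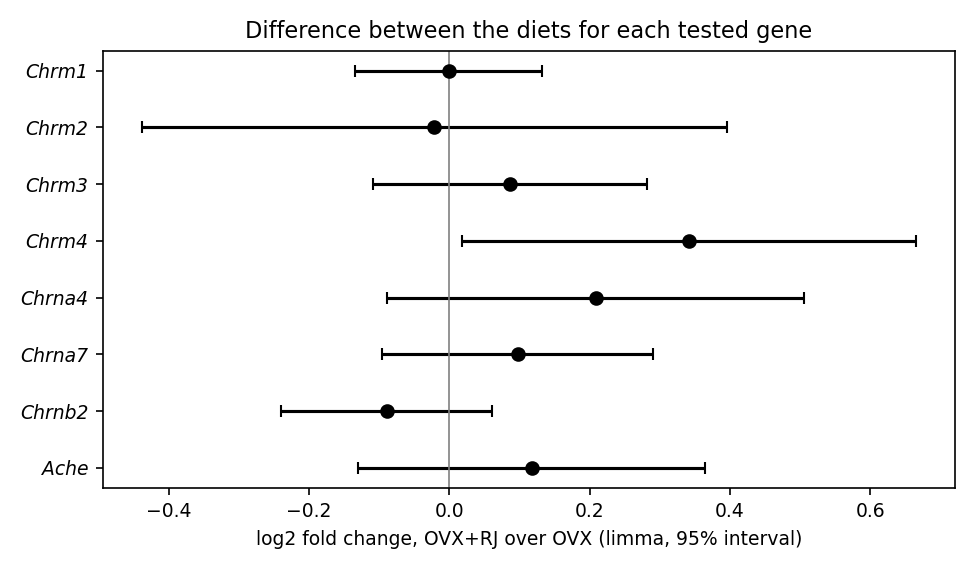
Log2 fold change of OVX+RJ over OVX for the 8 tested members with limma's 95% interval (horizontal axis); positive values are higher in OVX+RJ. The interval of Chrm4 (0.019 to 0.67) is the only one that leaves out 0, before adjustment over 18629 features, and that of Chrm2 is the widest.

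Chat, which marks cholinergic cell bodies, was close to absent. It had 4, 4 and 0 counts in OVX+RJ 1, 2 and 3 and 0 counts in each OVX library. A count of 4 corresponds to 0.104 CPM for OVX+RJ 1 and 0.102 CPM for OVX+RJ 2, with an exact Poisson 95% interval of 1.09 to 10.2 counts, which covers counting error only. For a count of 0 the same interval reaches up to 3.69 counts. This is a level of up to 0.102 CPM in OVX+RJ 3 and of up to 0.0634 to 0.106 CPM in the OVX libraries. Chat fell under the filter on low counts and was not tested with the others. With no filter the edgeR p was 0.0417 and the adjusted p was 0.869. No fold change is given, because every count was within a few counts of that upper limit.

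Other markers of cholinergic neurons were also low, though some, such as Slc5a7, were counted in every library. Slc18a3, the vesicular acetylcholine transporter, had at most 2 counts in any library. Slc5a7, the high-affinity choline transporter, had 10, 33 and 20 counts in OVX+RJ and 41, 40 and 54 counts in OVX. In CPM it was 0.260, 0.838 and 0.554 in OVX+RJ against 1.18, 0.688 and 1.33 in OVX, overlapping through OVX+RJ 2, with a log2 fold change of -0.93 (SE 0.43). Isl1 and Lhx8 had no row in the table used here. A further list of markers of these neurons, which holds neither Slc18a3 nor Slc5a7, had 4 tested genes. By sign 1 was higher and 3 were lower. Of these, 0 passed an unadjusted edgeR p under 0.05, beside 4.05% of all features. Ngfr, the low-affinity neurotrophin receptor, averaged 1.09 ± 0.493 CPM under royal jelly and 1.52 ± 0.660 CPM in OVX, Zic4 and Gbx1 had log2 fold changes of -0.33 and -0.57, and Slc10a4, a vesicular protein of cholinergic neurons, was at 0.089.

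Chrm1 and Chrnb2 made up the largest share of their receptor family in every library. Chrm1 made up 64.2 ± 0.942% of the muscarinic sum per length in OVX+RJ and 66.8 ± 1.27% in OVX (SD, n = 3 each), and Chrm3 made up 20.4 ± 1.12% in OVX+RJ and 19.997 ± 0.989% in OVX. Chrm4 made up 12.5 ± 1.38% in OVX+RJ and 10.2 ± 0.727% in OVX, and Chrm2 made up 2.85 ± 0.613% in OVX+RJ and 3.04 ± 0.777% in OVX. Of the nicotinic sum, Chrnb2 made up 49.998 ± 1.25% in OVX+RJ and 53.9 ± 1.85% in OVX, Chrna7 33.1 ± 1.67% in OVX+RJ and 31.3 ± 0.796% in OVX, and Chrna4 16.9 ± 2.42% in OVX+RJ and 14.8 ± 1.16% in OVX. The shares of Chrm1 and Chrnb2 were lower in every OVX+RJ library than in any OVX library, and that of Chrm4 was higher. Each of the 3 had p = 0.1 in an exact two-sided permutation test, the smallest that 3 against 3 allows, and an adjusted p of 0.233 over 7 shares. Shares of a family sum to 100%, so they do not vary independently. The shares also rest on the gene lengths, and per coding length Chrm4 made up 2.82% of the muscarinic sum over all 6 libraries, against 11.3% with the M21 exons. Counts of whole genes were divided in both cases, so neither share compares Chrm4 with the others on equal terms.

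**Figure D4:**
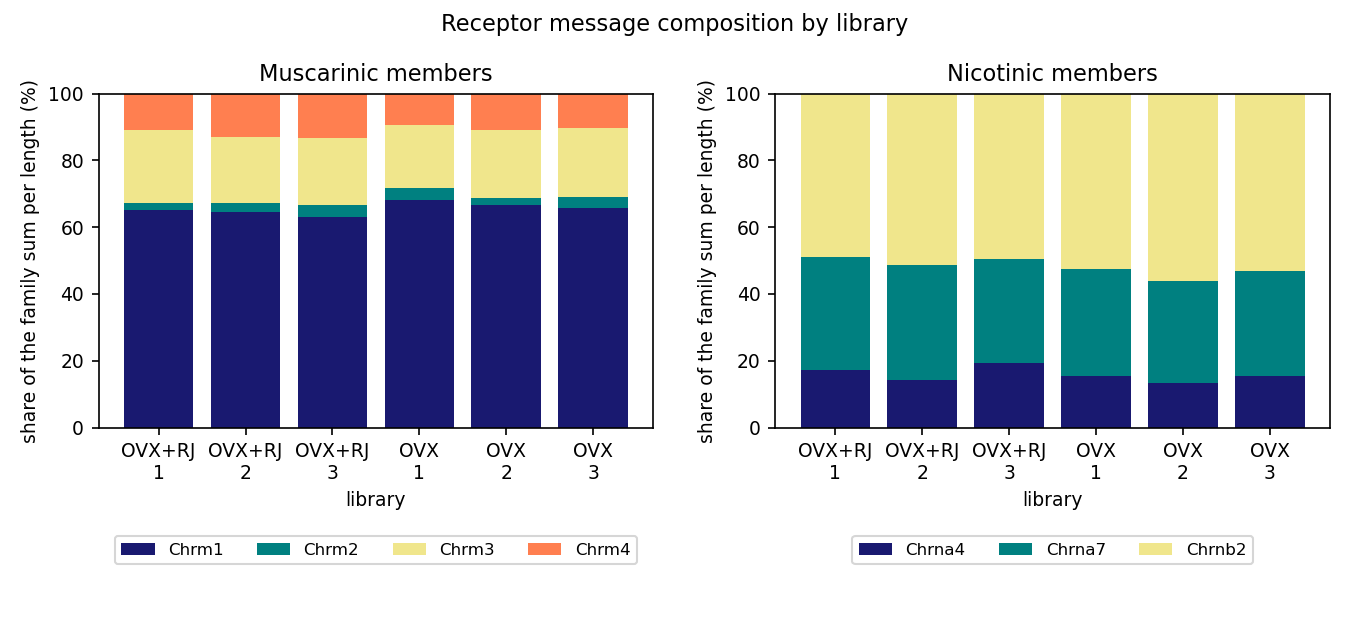
Share of each member in the summed CPM per kb of the 4 muscarinic members (left) and the 3 nicotinic members (right), in percent, by library, with OVX+RJ left of OVX. Chrm1 takes 63.2% to 68.1% of the muscarinic sum and Chrnb2 49.0% to 56.0% of the nicotinic sum.

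Members varied among themselves without a common pattern. Over 6 libraries, on the log2 CPM scale, Pearson's r between pairs of members ran from -0.78 (Chrm1 with Chrm2) to 0.76 (Chrm1 with Chrm3), and Chrna4 with Chrnb2 gave -0.45. These are descriptions of 6 libraries that share 2 groups and their tissue dissection. The genes most like each member over the same libraries were sought among 11017 protein-coding genes with a mean of at least 5 CPM. Chrm1 was followed most closely by Hsp90ab1 (r = 0.995) and by Slc17a7 (r = 0.994), the vesicular glutamate transporter of pyramidal and granule cells. Ache was followed by Spsb3 (r = 0.996) and by Abat, which breaks down GABA (r = 0.993). The nearest genes were Sestd1 and Ssbp2 for Chrm2, Ecsit and Ywhae for Chrm3, Klf10 and Utp3 for Chrm4, Neto2 and Serpini1 for Chrna4, Rufy2 and Snx10 for Chrna7, and Slc13a3 and Abcf3 for Chrnb2, with r between 0.972 (Abcf3) and 0.998 (Sestd1). Between 10 genes (Chrm2) and 49 genes (Ache) exceeded r = 0.95 for a member. The r values named are the highest among 11017 genes over only 6 libraries. How many genes would exceed 0.95 without any relation to a member was not determined.

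The remaining genes of the pathway also gave no call. None of the 46 tested genes in 6 lists of acetylcholine genes passed an adjusted p of 0.05, and 1 of them passed an unadjusted p of 0.05, beside 4.05% of all features. The groups did not overlap for 1 of 7 other receptors, 1 of 8 receptor partners, 2 of 12 genes of the Gq arm and 1 of 10 of the Gi/o arm. The share over all features was 10.5%, and the remaining lists held no such gene. Among the other receptors, the log2 fold change was above 0 for 2 of 7 tested genes and below 0 for 5 (median -0.017), and 6 further subunits in the table fell under the filter. The most abundant was Chrna5, the accessory α5 subunit, with a mean of 5.64 ± 0.636 CPM in the OVX+RJ libraries and 5.77 ± 0.610 CPM in the OVX libraries. Chrm5, the fifth muscarinic receptor, was at 1.74 ± 0.206 CPM with royal jelly and 1.95 ± 0.389 CPM without. Chrna3, the α3 subunit, was at 0.888 ± 0.0900 CPM with royal jelly and 1.22 ± 0.168 CPM without, and its groups did not overlap. Chrnb1 and Chrna1, subunits of the muscle receptor, had log2 fold changes of 0.54 and -0.20.

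Enzymes and transporters beyond Ache and Chat had log2 fold changes with SEs of 0.22 or more, except the choline transporter Slc44a1. It averaged 99.8 ± 8.21 CPM in the OVX+RJ libraries and 93.8 ± 9.47 CPM in the OVX libraries, and its log2 fold change was 0.098. Bche, butyrylcholinesterase, averaged 5.38 ± 1.39 CPM in the OVX+RJ libraries and 4.29 ± 0.751 CPM in the OVX libraries (log2 fold change 0.33, SE 0.22). Prima1, which anchors acetylcholinesterase in brain membranes, and Colq, its collagen tail, were at 0.082 and -0.64. Of the 8 chaperones and Ly6-family partners of nicotinic receptors, 4 were positive and 4 negative, with a median of -0.0036. Ric3, a chaperone of α7, averaged 103 ± 7.31 CPM in the OVX+RJ libraries and 95.7 ± 0.540 CPM in the OVX libraries, which did not overlap (log2 fold change 0.12, SE 0.071). Lynx1, a GPI-anchored brake on nicotinic receptors, averaged 361 ± 9.20 CPM in OVX+RJ libraries and 363 ± 16.5 CPM in OVX libraries, and Ly6h, Ly6e and Lypd6b had log2 fold changes of -0.028, -0.069 and 0.14.

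Downstream of M1 and M3, 10 of 12 genes of the Gq arm had a log2 fold change above 0 (median 0.080), beside -0.0015 over all features. Kcnq5, a channel subunit of the M current, averaged 109 ± 9.52 CPM in the OVX+RJ libraries and 95.6 ± 5.17 CPM in the OVX libraries (log2 fold change 0.20, SE 0.081). It was the gene at an unadjusted p under 0.05, and it was not called after adjustment. Plcb1, the phospholipase that M1 uses in forebrain, averaged 284 ± 9.68 CPM in the OVX+RJ libraries and 268 ± 4.13 CPM in the OVX libraries. Its groups did not overlap, nor did those of Prkca. Plcb3 averaged 14.5 ± 1.09 CPM with royal jelly and 16.5 ± 1.05 CPM without. Itpr1, the receptor through which inositol trisphosphate releases calcium, was among the most abundant of the list by CPM and had a log2 fold change of -0.023. In the Gi/o arm of M2 and M4, 7 of 10 genes were positive, with a median of 0.019. Gnai1, a Gi α subunit, averaged 235 ± 10.7 CPM in the OVX+RJ libraries and 219 ± 1.95 CPM in the OVX libraries, with groups that did not overlap (log2 fold change 0.12, SE 0.056). Rgs4, which shortens Gi and Gq signals, averaged 149 ± 14.7 CPM with royal jelly and 135 ± 7.36 CPM without (log2 fold change 0.15, SE 0.073). Gnai3, Gnao1 and Kcnj3, the GIRK1 channel subunit, were at 0.13, -0.0066 and 0.0067.

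Markers of neighbouring regions and cell types varied between the libraries. In bulk tissue, fewer cells of a type and less RNA per cell cannot be told apart. Striatal markers summed to 75.0 to 81.7 CPM in OVX+RJ mice and to 82.9 to 87.2 CPM in OVX mice, with 7 of 8 negative. Ppp1r1b had the highest mean of them, at 42.4 CPM over 6 libraries, and Adora2a was the positive one, at 0.13. Their part in the value of Chrm4 was not tested. Drd2 averaged 1.34 ± 0.306 CPM in the OVX+RJ libraries and 1.53 ± 0.357 CPM in the OVX libraries. Drd1, named after its value was seen, was at 3.14 ± 0.545 CPM with royal jelly and 4.65 ± 0.818 CPM without (log2 fold change -0.55, SE 0.20). Interneuron markers summed to 782 to 846 CPM in OVX+RJ mice and to 769 to 820 CPM in OVX mice, and Gad1 averaged 346 ± 12.5 CPM with royal jelly and 338 ± 6.62 CPM without.

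Of the principal cell layers, the dentate gyrus had the widest spread of summed markers. Dentate granule markers summed to 497 to 735 CPM in OVX+RJ mice and to 573 to 758 CPM in OVX mice. The sign was negative for 9 of 9. At an unadjusted edgeR p under 0.05 there were 3, beside 1.91% of all features lower at that level. Their median log2 fold change was -0.15, beside -0.0015 over all features. Prox1 averaged 108 ± 22.8 CPM with royal jelly and 113 ± 27.0 CPM without. CA1 markers summed to 643 to 715 CPM in OVX+RJ mice and to 659 to 714 CPM in OVX mice, and CA2 and CA3 markers to 416 to 470 CPM with royal jelly and to 426 to 458 CPM without. Thalamic markers summed to 107 to 123 CPM in OVX+RJ mice and to 96.5 to 111 CPM in OVX mice, with Tcf7l2 at 3.72 ± 0.588 CPM with royal jelly and 3.59 ± 0.146 CPM without. Rora had the highest mean of the thalamic markers, at 43.7 CPM over 6 libraries. Medial habenula markers summed to 196 to 231 CPM with royal jelly and to 194 to 218 CPM without. Most of that sum was Synpr, which averaged 159 CPM over 6 libraries, while Gpr151 and Pou4f1 averaged 1.13 and 0.0566 CPM. Choroid plexus markers summed to 26.9 to 54.6 CPM in OVX+RJ mice and to 25.7 to 36.1 CPM in OVX mice. The sign was positive for 7 of 7 tested markers, with a median log2 fold change of 0.72. At an unadjusted edgeR p under 0.05 there were 3, beside 2.14% of all features higher at that level. Ttr was at 14.2 ± 9.13 CPM with royal jelly and 5.60 ± 3.39 CPM without. Kl had the highest mean of the list, at 22.2 CPM over 6 libraries, with a log2 fold change of 0.0006. Oligodendrocyte markers summed to 3676 to 4933 CPM in OVX+RJ mice and to 3042 to 5030 CPM in OVX mice. The part of these markers in the members' values was not tested.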

How the data were processed

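The table the authors deposited holds expected counts, unscaled, with a column for each library. Per the submitters' processing notes, the genome build was GRCm39 and the tools were StringTie 2.2.1, HISAT2 2.2.1, fastp 0.23.4 and bcl2fastq 2.19, with no roles stated. How strand and multiply aligned reads were handled, and the annotation release, is not given in the sources used here. Per the labels' protocols, poly(A) RNA was prepared with a directional kit. Columns were matched to groups through the library names. Values that were not whole, at 51 features, were rounded, and 1 row without a gene name, under 0.001% of counts, was left out.

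CPM were taken over all named rows. Tests used R 4.3.3 with edgeR 4.0.16 (filterByExpr, TMM, glmQLFit, glmQLFTest, Benjamini-Hochberg, threshold 0.05), which kept 18629 features. SEs and 95% intervals are moderated values from limma 3.58.1 (log2 CPM, prior count 2). Fits were tested on simulated counts with 200 changed genes. Exon, transcript and coding lengths came from GENCODE M21 on GRCm38, another build, matched by symbol for all 9 members. Promoters are RefSeq, GRCm38.p6.

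Members and gene lists were chosen with earlier results of these data known. Named genes are the members, the 3 tested genes with the lowest p and the 3 with the highest CPM of each acetylcholine list, 5 region markers, and the 2 genes most correlated with each member. Some genes that this rule names are not reported here. The p-values of the fits set the difference between the groups against the spread between the libraries. Alternatives were DESeq2 1.42.0, limma-voom, other scalings, filters, robust empirical Bayes, a replicate block, other lengths and each library left out. Replicate numbers were not treated as pairs of libraries.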

Additional observations from a re-analysis of the deposited data

How the results depend on the processing

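No member was called under any of the 15 alternatives to the edgeR fit. Over all features, where the edgeR fit called 0, DESeq2 called 12, robust empirical Bayes 3 and the replicate block 1, and leaving out a library gave 0 to 8, the most without OVX+RJ 2. Deviations from the group means of same-numbered libraries had correlations of 0.046, -0.0024 and 0.0031, and 1 of 3 OVX+RJ libraries correlated best with its own number. No pairing by number was seen, but 3 numbers cannot exclude a weak one. The replicate block is a check only. The log2 fold change of Chrm4 was 0.32 to 0.34 in the fits on all 6 libraries, with an unadjusted p of 0.0398 to 0.0569 across edgeR, DESeq2 and limma-voom. Chrm1 and Chrm2 were near 0 and changed sign: Chrm1 to 0.0015 with a mean of at least 50 counts and Chrm2 to 0.016 with limma-voom. With each library left out, they ran from -0.026 to 0.049 and from -0.21 to 0.091. Of the other members none changed sign. The order of levels per length put 4 members at another rank with the longest transcript, 6 with the coding length and 4 in the OVX libraries alone, and 0 to 2 with a library left out. Over all 6 libraries the share of Chrm1 was 60.8% and 76.3% with the longest transcript and the coding length, against 65.5% with all exons, that of Chrm3 26.2% and 17.7% against 20.2%, that of Chrna4 12.7% and 12.3% against 15.8%, and that of Chrna7 37.6% and 28.6% against 32.2%. With the coding length the share of Chrm4 was 2.82% against 11.3% and that of Chrnb2 59.2% against 52.0%. The coding length was applied to counts of whole genes, which raises members with long untranslated exons. With a library left out, the mean share of Chrm1 ran from 65.0% to 66.0% and that of Chrm4 from 10.9% to 11.7%. That of Chrnb2 ran from 51.2% to 52.6%. The 3 libraries of a group and, for Chat, the low counts limit what could be detected.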
